A study of Homo sapiens with 13 samples.

Results

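The insulin-like growth factor (IGF) binding proteins and IGF receptors were followed in human non-small cell lung carcinoma cells and in lines selected from them for growth in bone. The family comprised 9 genes, IGFBP1 to IGFBP7, IGF1R and IGF2R, taken with every probe set that the platform annotation assigns to one of them alone. They were read by 19 of 22277 probe sets and made up 9 of 11963 genes. The family was taken up because IGFBP3 was already known to be low in the metastatic lines, one of only 3 genes called for their mean against control. The differences of IGFBP3 from control are therefore given as a description, without a test, and the other members were added by name.

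The 13 Affymetrix arrays held 5 groups. Control cells without a luciferase reporter filled 2 arrays and control cells carrying the reporter another 2. The metastatic lines, M1, M4 and M5, filled 3 arrays each, and the labels do not give their reporter status. By the labels, each line is a subpopulation recovered from the bones of mice that had received control cells into the heart, and every array carried RNA pooled from 3 groups of cells. The sources used here give neither the parental line nor the age, sex or strain of the mice. The labels call the arrays of a group biological replicates without saying what was grown separately, so every p-value here rests on the spread between those arrays.

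IGF1 and IGF2 act through IGF1R, a receptor tyrosine kinase that drives growth and survival through PI3K and AKT. The binding proteins IGFBP1 to IGFBP6 are secreted, hold the ligands with high affinity and so limit or prolong their access to the receptor, and proteases such as PAPPA release the ligands again. IGFBP7 binds IGFs only weakly and sits in the extracellular matrix, while IGF2R, the cation-independent mannose 6-phosphate receptor, removes IGF2 and sorts lysosomal enzymes. Bone matrix is known as a store of IGFs.

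The 62 Affymetrix control probe sets, made for spiked-in RNA and for the hybridisation itself, separated the arrays into 4 sets that the labels do not record. Set 1 held both first control arrays and M1 replicate 2. Both second control arrays lay in set 2 with replicate 1 of each line. Set 3 held M1 replicate 3 with M4 replicates 2 and 3, and set 4 only M5 replicates 2 and 3. All 13 arrays correlated best, across all probe sets, with an array of their own set. Results are therefore given from the fit without a term for these sets and from the fit with the sets as a block, in which M5 rests on its replicate 1 alone. The keratins KRT8, KRT18 and KRT19 lay above the upper quartile of the array on all 13 arrays, whereas the signals of EPCAM and CDH1, epithelial markers too, were under the lower quartile throughout. Of 6 fibroblast and marrow stroma markers, COL3A1 was above the upper quartile on all 13 arrays, LUM under the lower quartile on all 13, and COL1A1, COL1A2, DCN and PDGFRB between the quartiles. Of 3 endothelial markers, VWF was under the lower quartile on all 13 arrays, PECAM1 on 7 and CDH5 on 6.

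The sequence just upstream of the start is shown for IGFBP3 and IGFBP4, both of which were lower in M5 than in control. RefSeq gives such a window for 7 of the 9 members, and IGFBP1 and IGFBP7 were not matched. Shown are the 250 bases before the annotated start (build GRCh38.p14), 5′ to 3′, for IGFBP3 on the minus strand of chr7:45921273-45921522 and IGFBP4 on the plus strand of chr17:40443200-40443449. Capitals mark the GC box letters GGGCGG on either strand, which therefore also appear as the reverse complement, and the TATA box letters TATAAA.
IGFBP3: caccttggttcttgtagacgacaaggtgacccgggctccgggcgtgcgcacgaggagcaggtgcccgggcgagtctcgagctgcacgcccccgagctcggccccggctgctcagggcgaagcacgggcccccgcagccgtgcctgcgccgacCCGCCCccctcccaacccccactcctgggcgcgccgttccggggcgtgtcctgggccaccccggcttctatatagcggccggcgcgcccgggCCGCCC
IGFBP4: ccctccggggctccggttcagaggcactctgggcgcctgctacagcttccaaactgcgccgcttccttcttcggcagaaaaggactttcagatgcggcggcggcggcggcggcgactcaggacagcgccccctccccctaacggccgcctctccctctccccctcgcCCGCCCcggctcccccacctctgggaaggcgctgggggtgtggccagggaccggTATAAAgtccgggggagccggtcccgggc
The IGFBP3 window held 2 GC box matches, and the IGFBP4 window held 1 GC box match and 1 TATA box match, whose first base lay 29 bases before the start. Of 35114 RefSeq windows of this length, 42.6% held the GC box letters and 10.7% the TATA box letters. The windows were 76% and 71.6% G or C for IGFBP3 and IGFBP4, against a median of 58% over all windows. IGF1R and IGF2R, which were not called, had more, at 81.2% and 79.2%, with 2 and 6 GC box matches. IGFBP2, IGFBP5 and IGFBP6 had 56.8%, 61.2% and 61.2%, with 1, 0 and 1 matches. G or C content and GC box matches therefore did not set the 2 windows shown apart. The TATA box letters were found in the IGFBP4 window alone among the 7, and any bearing on its signal was not tested.

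IGFBP3, the main IGF carrier of serum and a secreted protein with growth-restraining activity in many tumour cells, was bright on every array. Its log2 signal (deposited RMA value) was 10.87 and 10.73 in control without luciferase, and 10.42 and 10.21 in control with luciferase. M1 gave 9.70, 9.95 and 9.64, M4 gave 10.21, 9.90 and 9.71, and M5 gave 9.86, 9.69 and 9.70. The 3 arrays of M1 and of M5 thus lay below all 4 control arrays, as for 3.59% and 6.3% of all genes, while M4 replicate 1 reached the lowest control array. A second, dimmer probe set gave 9.50 and 9.56 in control without luciferase and 9.05 and 9.09 in control with it. On that probe set the 9 metastatic arrays lay between 8.03 and 9.03, all below the 4 control arrays, of which the lowest read 9.05. With each gene read by its brightest probe set, 0.326% of all genes showed this order, and IGFBP3 was not among them. IGFBP3 was chosen on this comparison, so nothing is read from the order. The readings of the 2 probe sets moved together over the 13 arrays (Pearson r 0.952, Spearman rho 0.89). RNA came from whole cultures, so fewer expressing cells and less RNA per cell cannot be told apart.

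**Figure D1:**
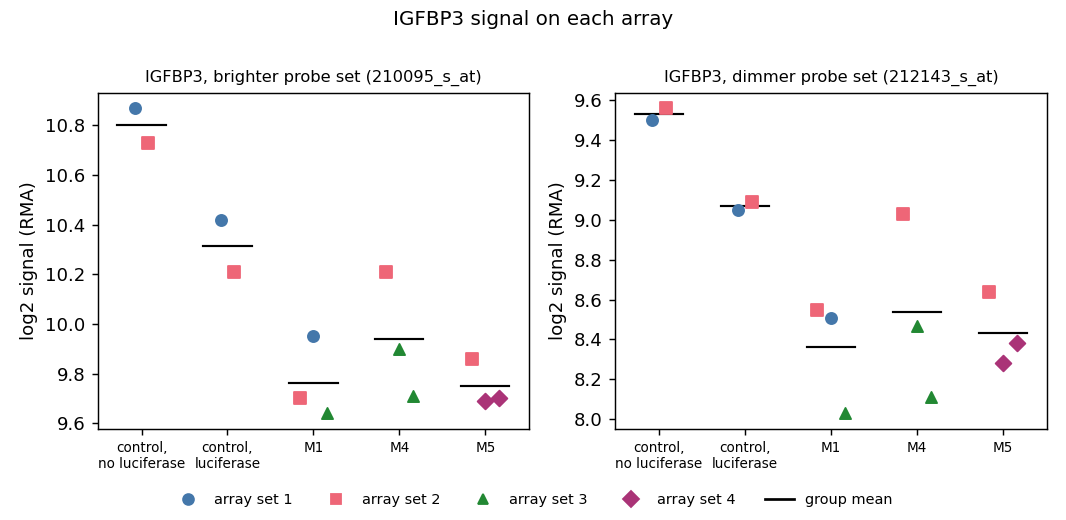
IGFBP3 log2 signal (y axis) on each of the 13 arrays by group (x axis) for both probe sets, with horizontal bars at group means and marker shapes for the 4 array sets. On the dimmer probe set all 9 metastatic arrays, at 8.03 to 9.03, sit below the 4 control arrays at 9.05 to 9.56.

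For the mean of the lines, IGFBP3 was 1.67-fold lower than control without the block (log2 difference -0.74 ± 0.10, SE), the value by which it was chosen, and 1.47-fold lower with it (-0.55 ± 0.08). Over all genes 0.0251% were called for this mean without the block and 0.527% with it. IGFBP3 was taken up for its call here, so nothing is read from that call. No other member was called by limma in either fit, and 3 members without the block and 2 with it, IGFBP3 among them, had an unadjusted p under 0.05, against 8.16% and 9.69% of all genes. Without the block, M1 stood at -0.79 from control, M4 at -0.62 and M5 at -0.81. Within array set 2 the values were -0.77, -0.26 and -0.61, and within array set 1 M1 differed by -0.70. The second probe set gave -0.77, -0.29 and -0.68 within set 2 and -0.77 for M1 in set 1. M4 was thus the line nearest to control on either probe set.

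Differences among the lines were tested, as they played no part in the choice of IGFBP3, and none was called by limma. Of all genes 0.0251% were called for M4 against M1, 1.23% for M5 against M1 and 2.16% for M5 against M4, and 0.117%, 1.61% and 1.85% with the block. M5 differed from M1 by -0.02 (95% interval -0.31 to 0.28, limma adjusted p = 0.97) and from M4 by -0.19 (-0.49 to 0.11, adjusted p = 0.529). M4 differed from M1 by 0.18 (-0.12 to 0.48, adjusted p = 1) and, with the array set block, by 0.32 (0.10 to 0.53, adjusted p = 0.715). In rising order of mean signal the groups ran M5 (9.75 ± 0.09, SD, n = 3), M1 (9.76 ± 0.16, n = 3), M4 (9.94 ± 0.25, n = 3), control with luciferase (10.31 ± 0.15, n = 2) and control without (10.80 ± 0.10, n = 2). M5, M1 and M4 were neighbours whose differences did not pass the test.

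The kinds of control did not coincide for IGFBP3. The 2 arrays with luciferase lay below the 2 without it on both probe sets, an order that 13.4% of all genes showed, by -0.49 ± 0.17 on the first (limma adjusted p = 1, unadjusted p = 0.0134) and -0.46 on the second. With the array set block the first value was -0.49 ± 0.11 (adjusted p = 0.369), so it did not pass the correction in either fit. No member was called between the kinds of control, where 0% of all genes were called without the block and 0.0167% with it. Set against controls without luciferase alone, the mean of the lines was at -0.98, and against controls with luciferase alone at -0.50. The size of the IGFBP3 difference therefore depended on which control was used. Both values were below 0, but IGFBP3 was chosen for being low in this comparison, so nothing is read from the sign.

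IGFBP4, an inhibitory binding protein that PAPPA cleaves, was read by 1 probe set and was lowest in M5. Its log2 signal was 6.90 and 7.25 in control without luciferase, 6.47 and 6.68 in control with luciferase, and 6.65, 7.15 and 6.79 in M1. In M4 it was 7.02, 7.92 and 7.46, and in M5 5.62, 5.50 and 5.91. Every M5 array lay below all 10 other arrays, as for 3.1% of all genes. IGFBP4 fell 2.22-fold in M5 against control (-1.15 ± 0.20, SE, limma adjusted p = 0.0124) and stood at -1.18 ± 0.29 with the array set block (adjusted p = 0.0755). The unblocked call was lost without control without luciferase replicate 2 (adjusted p = 0.0568), control with luciferase replicate 2 (0.0521) or M5 replicate 2 (0.064). Within array set 2, M5 replicate 1 lay 1.35 log2 units below its 2 controls (-1.35), so the difference was as large there as in the fit of all arrays.

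The lines also differed from each other in IGFBP4. M5 was 3.46-fold lower than M4 (-1.79 ± 0.21, limma adjusted p = 0.00122), and 3.15-fold lower with the block (-1.65 ± 0.32, adjusted p = 0.0311). This call held without each of the 13 arrays in turn, with adjusted p from 5e-04 to 0.00875 and values from -2.01 to -1.57. Against M1, M5 was 2.27-fold lower (-1.19 ± 0.21, adjusted p = 0.0219), a call lost with the block (-1.13 ± 0.31, adjusted p = 0.102) and without M1 replicate 2 or 3 or M5 replicate 2 or 3 (adjusted p = 0.0897, 0.0661, 0.0986 and 0.0619). M4 stood 0.64 ± 0.20 above control, which did not pass (adjusted p = 0.464), and its values within array set 2 were 7.02 against a control mean of 6.97. The order of group means ran M4 (7.47 ± 0.45, SD, n = 3), control without luciferase (7.08 ± 0.25, n = 2), M1 (6.86 ± 0.26, n = 3), control with luciferase (6.58 ± 0.15, n = 2) and M5 (5.68 ± 0.21, n = 3). M5 stood apart at the low end, and the tested differences of M4 from M1 and between the kinds of control (0.61 and -0.50) were not called.

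IGFBP7, a matrix-associated relative with low IGF affinity, was highest in M5. On its brightest probe set, control without luciferase gave 5.23 and 5.53, control with luciferase 5.56 and 5.37, M1 5.24, 5.56 and 5.33, and M4 5.13, 5.29 and 5.39. M5 gave 5.80, 6.32 and 6.70. All M5 arrays lay above the other 10 arrays, as for 1.87% of all genes, with the array of set 2 the lowest of them. IGFBP7 rose 1.81-fold in M5 against control without the block (0.85 ± 0.18, SE, limma adjusted p = 0.0293), and was at 0.43 ± 0.19 with it (adjusted p = 0.323). With M5 replicate 1 as the only M5 array, the difference was 0.38 (adjusted p = 0.455).

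The second IGFBP7 probe set was under the lower quartile on all 13 arrays, so its differences are not exact. There M5 gave 4.08, 3.78 and 3.96, and the other 10 arrays ranged from 3.18 to 3.54. In the fit of all 22215 probe sets that are not Affymetrix controls, it was higher in M5 than in control by 0.57 ± 0.11 without the block (limma adjusted p = 0.0336) and by 0.80 ± 0.13 with it (adjusted p = 0.0167). In that fit 1.4% of probe sets were called for M5 without the block and 1.54% with it. The unblocked call was lost without any one control array (adjusted p = 0.0797 to 0.125), M4 replicate 3 (0.059), M5 replicate 2 (0.066) or M5 replicate 3 (0.151). On this probe set M5 replicate 1 was the highest array, whereas on the brightest probe set it was the lowest of the line. The dimmest IGFBP7 probe set was below the lower quartile on all arrays, with M5 at 3.24, 3.26 and 3.63 and all others from 3.08 to 3.33.

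M5 also differed from the other lines in IGFBP7. It was 2.01-fold higher than M4 on the brightest probe set (1.01 ± 0.19, limma adjusted p = 0.0181) and 1.86-fold higher than M1 (0.90 ± 0.19, adjusted p = 0.0449). With the block these values were 0.59 ± 0.21 and 0.48 ± 0.20, neither called on this probe set (adjusted p = 0.209 and 0.278). The unblocked M5 call against control on the brightest probe set was lost without any one control array (adjusted p = 0.064 to 0.107), M4 replicate 2 (0.0509), M5 replicate 2 (0.12) or M5 replicate 3 (0.135). Against M4 it was lost without any one M4 array (0.0571 to 0.0848), M5 replicate 2 (0.0657) or M5 replicate 3 (0.0743), and against M1 without each array except M5 replicate 1 (0.000548 without it). Array set 4 held only M5 replicates 2 and 3, so the values within sets rest on M5 replicate 1, which in set 2 stood 0.35 above control, 0.67 above M4 and 0.56 above M1. On the second probe set M5 was higher than M4 in both fits (0.59 and, with the block, 0.86, limma adjusted p over all probe sets = 0.0409 and 0.0181). Against M1 it was called with the block only (0.59 and 0.86, adjusted p = 0.0575 and 0.0194). Of all probe sets 1.25% and 1.59% were called against M4 and 0.617% and 1.37% against M1. The unblocked call against M4 stayed only without M1 replicate 1 or M5 replicate 1 (adjusted p otherwise up to 0.158). M1 and M4 stood at -0.04 and -0.15 from control, neither called.

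**Figure D2:**
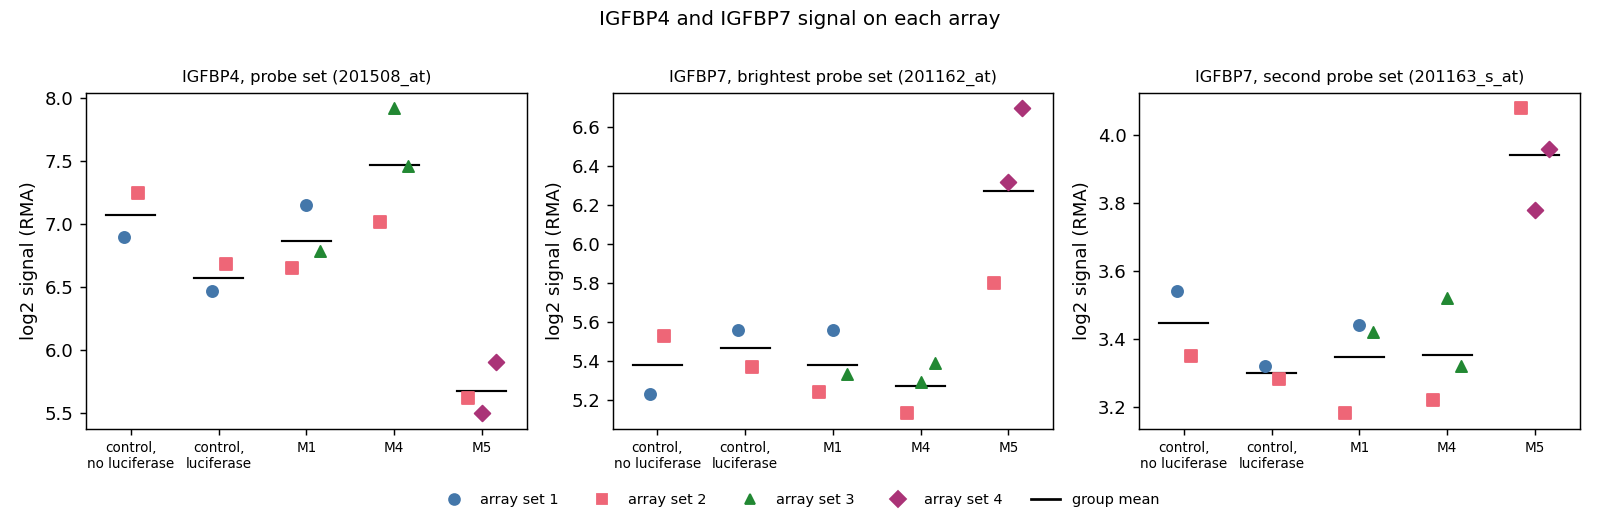
Log2 signal (y axis) of IGFBP4 and of 2 IGFBP7 probe sets on each array by group (x axis), with bars at group means and marker shapes for the array sets. The 3 M5 arrays are the lowest for IGFBP4 (5.50 to 5.91) and the highest for IGFBP7 (5.80 to 6.70 on the brightest probe set and 3.78 to 4.08 on the second).

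Leaving IGFBP3 aside, the members called in M5 against control were these 2, IGFBP4 down and IGFBP7 up, and 6 members were not called. Of all genes 2.37% were called in this comparison without the block and 1.98% with it, and with the block none of the other members passed. In M4 no member, IGFBP3 included, was called against control by limma in either fit. In M1 the only member called was IGFBP3, and that with the block only. Called genes made up 0.0251% of all genes in M1 and 0.092% in M4, and 0.234% and 0.15% with the block. Without the block 3 members in M1 and 4 in M4, IGFBP3 among them, had an unadjusted p under 0.05, against 3.08% and 6.91% of all genes. With the block 2 members did in M4, IGFBP3 among them, against 7.01%. The 9 members had a median difference of -0.0418 for M1, -0.137 for M4 and -0.0777 for M5, against -0.00785, -0.00111 and 0.0308 over all genes. Each line had 6 or 7 of the 9 members below control without the block, and with it M5 had 5 below and 4 above. These medians and counts include IGFBP3, chosen for being low in the lines, and IGFBP1, which was close to the floor of the assay. The share of all genes below control is not given beside them, so no lean of the family is read from them.

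**Figure D3:**
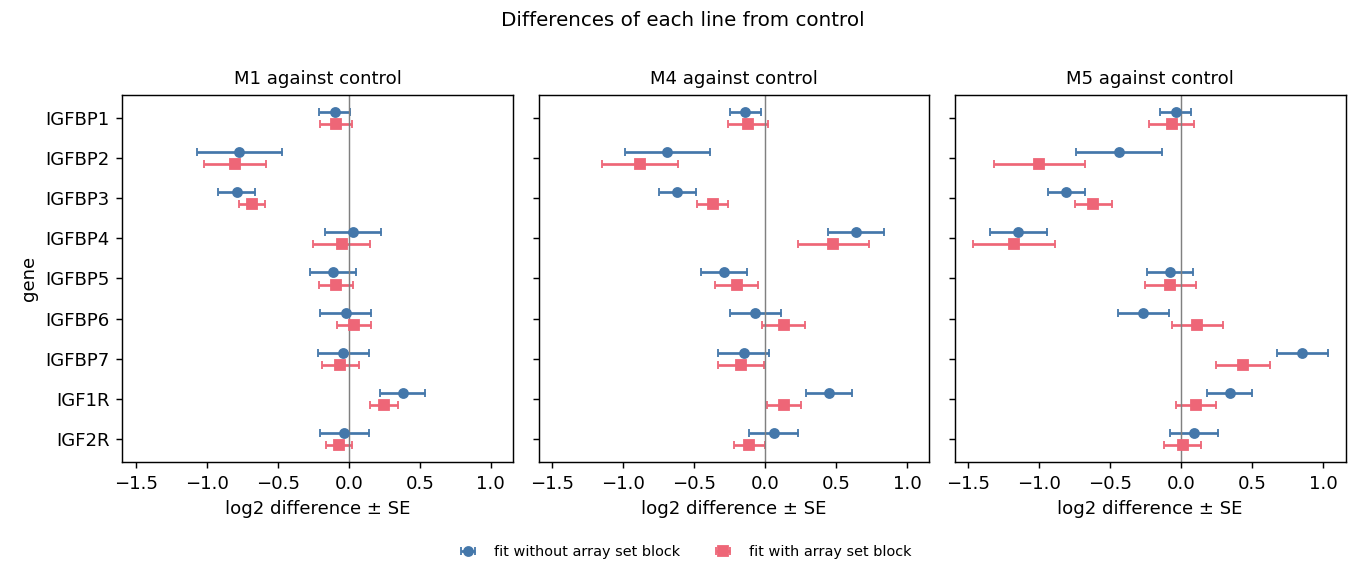
Log2 difference from control (x axis) of the 9 members (y axis) in M1, M4 and M5, with moderated SE as error bars, from the fit without (circles) and with (squares) the array set block. IGFBP1, IGFBP2, IGFBP3 and IGFBP5 lie left of 0 in all 3 lines in both fits. Without the block IGFBP4 is at -1.15 in M5 and 0.64 in M4, and IGFBP7 lies to the right in M5 alone.

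IGFBP2, a binding protein often raised in the serum of patients with tumours, had lower means in all lines but varied between arrays. Control without luciferase gave 8.09 and 8.50 and control with luciferase 8.12 and 9.00. M1 gave 7.71, 7.10 and 8.18, M4 8.39, 7.37 and 7.47, and M5 7.82, 8.21 and 7.94. The lines overlapped with control, since M4 replicate 1, M1 replicate 3 and M5 replicate 2 lay above the lowest control array. The mean of the lines was at -0.63 ± 0.23 without the block (limma adjusted p = 0.507) and -0.89 ± 0.21 with it (adjusted p = 0.105), so neither fit called it. Within array set 2 the differences from control were -1.05 for M1, -0.36 for M4 and -0.93 for M5, and M1 gave -1.01 within set 1. Every such within-set value was below 0 for IGFBP2. The same held for IGFBP3, which was chosen for being low in the lines, for IGFBP1, close to the floor, and for a dimmer IGFBP5 probe set. The values within set 2 share the same 2 control arrays, and no share of all genes is given. Nothing is therefore read from these signs.

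IGFBP5, the most conserved binding protein and abundant in bone, was represented by 5 probe sets that did not vary in parallel. On the brightest of them control ranged from 6.74 to 6.98, M1 from 6.39 to 7.11, M4 from 6.47 to 6.72 and M5 from 6.59 to 6.99. M4 lay below all control arrays, as for 5.53% of all genes, at -0.29 ± 0.16 from control, which did not pass (limma adjusted p = 0.819). M1 and M5 overlapped with control, and the intervals of their differences were -0.46 to 0.23 and -0.42 to 0.27. On each of the other probe sets M4 overlapped with control too, at -0.07, -0.20, 0 and 0.08 from it without the block. Correlations between the 5 probe sets over the 13 arrays ranged from -0.312 to 0.655, and the dimmest was under the lower quartile on all 13 arrays. IGFBP5 is the neighbour of IGFBP2 in the genome, as IGFBP3 is of IGFBP1.

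IGFBP6, which prefers IGF2 over IGF1, and IGFBP1, a liver-derived regulator of free IGF, showed no called difference in any of the 8 comparisons. IGFBP6 ranged from 7.32 to 7.70 in control, 7.19 to 7.93 in M1, 7.31 to 7.48 in M4 and 6.94 to 7.36 in M5. Its difference in M5 changed sign between the fits, from -0.27 (95% interval -0.65 to 0.11) to 0.11 (-0.29 to 0.51) with the block. IGFBP1 lay between 3.34 and 3.77, below the lower quartile of every array, so its level is close to the floor of the assay and no fold is given.

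**Figure D4:**
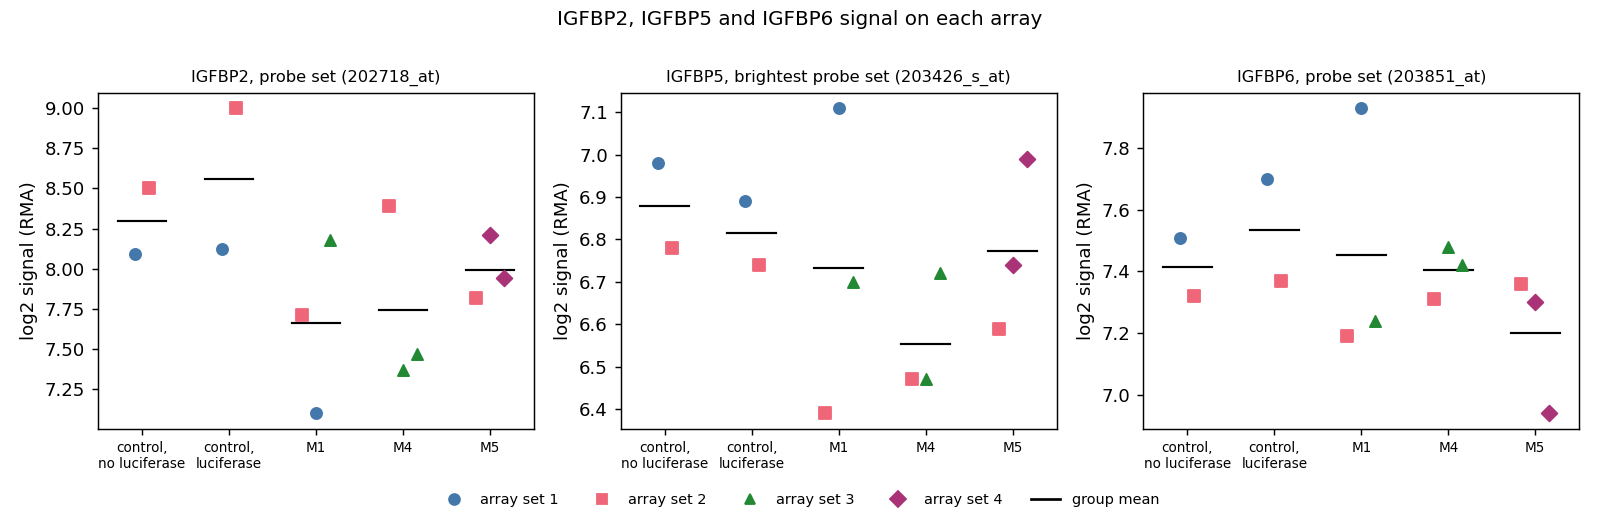
Log2 signal (y axis) of IGFBP2, IGFBP5 and IGFBP6 on each array by group (x axis), with bars at group means and marker shapes for the array sets. The groups overlap for IGFBP2 (7.10 to 9.00 over all arrays) and IGFBP6 (6.94 to 7.93). M4 at 6.47 to 6.72 sits below control on the IGFBP5 probe set shown, the brightest, but not on the others of that gene.

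IGF1R, the signalling receptor, was read by 3 probe sets that disagreed in M5. On the brightest, control without luciferase gave 6.89 and 7.51, control with luciferase 6.94 and 7.34, and the 9 metastatic arrays 7.34 to 7.80 with a median of 7.54. The low control arrays were both in array set 1, and within array set 2 M1 was at 0.15, M4 at 0.00 and M5 at 0.04 from control. The mean of the lines was at 0.39 ± 0.13 without the block (limma adjusted p = 0.429) and 0.16 ± 0.09 with it (adjusted p = 0.617). Neither value was called, and over all arrays the signal ran from 6.89 to 7.34 in set 1, 7.34 to 7.57 in set 2, 7.64 to 7.80 in set 3 and 7.52 to 7.54 in set 4.

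The second IGF1R probe set showed another pattern. Control ranged from 6.77 to 7.06 and the arrays of M1 and M4 together from 6.76 to 7.12, while M5 gave 7.12, 5.93 and 5.87. The low values were those of M5 replicates 2 and 3 alone, the arrays of set 4, and M5 replicate 1 was among the highest of all arrays. M5 against control was at -0.63 ± 0.24 without the block and 0.10 ± 0.14 with it, neither called by limma over all probe sets (adjusted p = 0.23 and 0.851). On the brightest probe set the same 2 arrays read 7.54 and 7.52, so the probe sets of 1 gene gave opposite accounts of these arrays. The dimmest probe set ranged from 3.91 to 4.67, highest in M5 replicate 2, and lay below the lower quartile on 8 of 13 arrays.

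IGF2R was bright, and its 2 probe sets varied with the array sets in opposite ways. On the brighter the 3 arrays of set 1 read 7.77 to 7.99, those of set 2 8.30 to 8.51, those of set 3 8.16 to 8.29 and those of set 4 8.18 to 8.21. On the dimmer set 1 was instead the highest, at 7.98 to 8.34, against 7.58 to 7.88 in set 2. Over the 13 arrays the probe sets were negatively correlated (Pearson r -0.577, Spearman rho -0.176). Differences of M1, M4 and M5 from control were -0.03, 0.06 and 0.09 on the brighter probe set, none called in either fit (limma adjusted p = 1, 1 and 0.817 without the block).

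**Figure D5:**
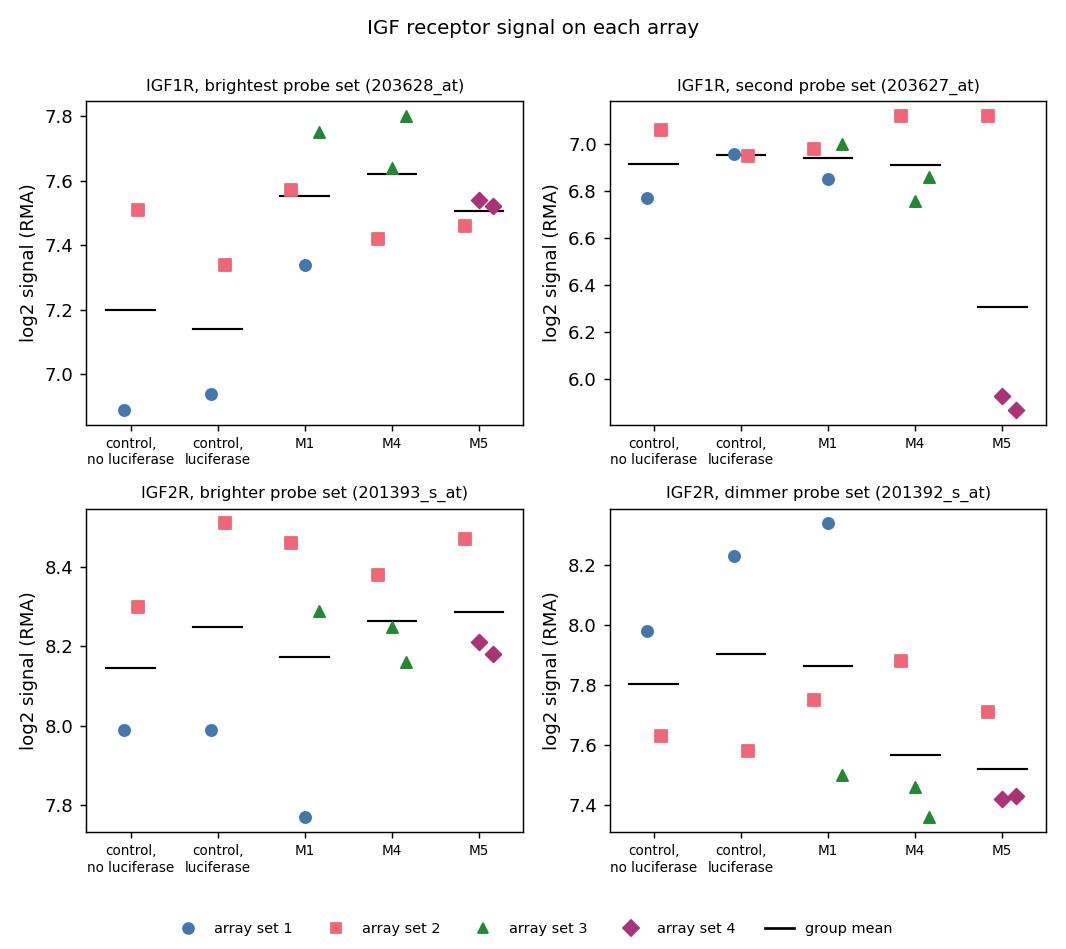
Log2 signal (y axis) of 2 IGF1R and 2 IGF2R probe sets on each array by group (x axis), with bars at group means and marker shapes for the array sets. On the second IGF1R probe set the M5 arrays of set 4 read 5.93 and 5.87 and stand below all others, and on both IGF2R probe sets the arrays of set 1 are separated from those of set 2.

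The surrounding pathway was described with a list of 65 genes, of which 56 had a probe set of their own. The list was chosen with earlier results of these data known, so its shares are descriptions and nothing is read from them. None of the 56 was called by limma for the mean of the lines in either fit, with 8 at an unadjusted p under 0.05 without the block and 11 with it, where 8.16% and 9.69% of all genes were. In M5 against control 1 rose and 3 fell without the block, 7.14% of the list against 2.37% of all genes, and 1 rose and 1 fell with it, 3.57% against 1.98%. The list median was -0.00368 in M5 without the block and -0.0654 with it, against 0.0308 and -0.0171 over all genes. The ligand IGF1, the receptor INSR and the protease PAPPA were not called in M5, at -0.08, 0.09 and 0.29 without the block.

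SOCS2, a feedback inhibitor of growth hormone signalling, was the pathway gene that rose. Its log2 signal was 5.70, 6.21, 5.73 and 6.24 on the control arrays, 5.99 to 6.45 in M1, 6.25 to 6.41 in M4 and 7.01, 6.98 and 6.92 in M5. All M5 arrays lay above the other 10, as for 1.87% of all genes. SOCS2 rose 2.00-fold in M5 against control (1.00 ± 0.16, limma adjusted p = 0.00939) and 1.83-fold with the block (0.87 ± 0.16, adjusted p = 0.0239). The unblocked call held without each of the 13 arrays in turn (adjusted p 0.00267 to 0.0432) and was lost when only the control and M5 arrays were fitted (adjusted p = 0.0789).

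IGF2BP2, an RNA-binding protein of the IGF2 messenger and not a binding protein of the factor itself, fell 1.81-fold in M5 (-0.86 ± 0.20, limma adjusted p = 0.0413) and 2.16-fold with the block (-1.11 ± 0.18, adjusted p = 0.016). Without the block it stayed called only where M1 replicate 1 or 3, M5 replicate 1 or control with luciferase replicate 1 was left out, and the adjusted p reached 0.178 without M5 replicate 2. CAV1, the caveolar scaffold protein, and NEDD4, a ubiquitin ligase that acts on IGF1R, fell without the block only (-0.83 and -0.66, adjusted p = 0.0306 and 0.0363). With the block they stood at -0.24 and -0.31 (adjusted p = 0.553 and 0.394), and CAV1 read 8.89 and 8.86 on the arrays of set 4 against 9.63 on M5 replicate 1. The CAV1 call ended without any one control array, M4 replicate 2 or 3 or M5 replicate 2 or 3 (adjusted p up to 0.162), and the NEDD4 call stayed only without M1 replicate 1 or 2, M4 replicate 1 or M5 replicate 1 (otherwise up to 0.178). Without M5 replicate 1, 16 of the 56 pathway genes and 3062 of all 11963 genes were called, so the count for M5 depended heavily on that array. In that fit M5 consisted of replicates 2 and 3, the only arrays of set 4, so line and array set cannot be told apart.

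Against the other lines, the protease PLAU, which activates plasmin, fell in M5 without the block (-1.09 against M1 and -1.06 against M4, limma adjusted p = 0.0425 and 0.032), as did the PI3K subunit PIK3CB (-0.74 and -0.82, adjusted p = 0.0449 and 0.0181). With the block neither was called, at -0.75 and -0.67 for PLAU and -0.45 and -0.39 for PIK3CB (adjusted p = 0.0971, 0.152, 0.157 and 0.265). Against M1 the PLAU call ended without any one M1 array, M4 replicate 3 or M5 replicate 2 or 3 (adjusted p up to 0.186), and the PIK3CB call stayed only without M5 replicate 1 (otherwise up to 0.178). Against M4 both ended without M4 replicate 2 or 3 or M5 replicate 2 or 3 (up to 0.148 and 0.0898). SOCS2 was higher in M5 than in M1 in both fits (0.82 and 0.81, adjusted p = 0.0427 and 0.0416) and than in M4 with the block only (0.81, adjusted p = 0.0428). Against M1 the unblocked SOCS2 call ended without M1 replicate 1 or 2, any one M4 array or M5 replicate 2 or 3 (adjusted p up to 0.156). IGF2BP2 was lower in M5 than in M1 with the block only (-0.91, adjusted p = 0.0444). IGF2BP2 and PIK3CB lie on chromosome 3, whose 655 measured genes had a median of -0.29 in M5 against control, while all genes had 0.03. The part of this shift in their values was not tested.

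The genes most like IGFBP3 over the 13 arrays were sought among 5980 others above the median signal. They were GPN2 (Pearson r 0.896, Spearman rho 0.896), GDE1 (0.867 and 0.918), IRF3 (0.837 and 0.824), SLC48A1 (0.816 and 0.846) and ADAMTS1 (0.808 and 0.819). GPN2 had a mean of 8.06 in control and 7.68, 7.74 and 7.67 in M1, M4 and M5, and ADAMTS1 7.27 against 7.04, 7.02 and 6.87. After the mean of each array set was subtracted, the 5 most alike were GAS1 (0.973 and 0.863), LCMT1, SPTAN1, OSMR and TSC2 (0.887 to 0.896), with 0 genes in common with the first 5. The arrays share groups and array sets, so these values are descriptions over 13 points that are not independent.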

How the data were processed

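The authors deposited RMA values, log2 signals after background correction, normalization between arrays and summary to 1 value per probe set, per the submitters' processing notes. They cover 22277 probe sets on 13 arrays. The RMA version is not given in the sources used here. After this processing the array upper quartiles still ranged from 7.47 to 7.74, lowest on M5 replicates 2 and 3. The number of arrays limits the precision.

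Of the probe sets, 62 are Affymetrix controls, 19064 name 1 gene, 1043 several and 2108 none. The probe set with the highest mean stood for its gene, and other probe sets of members were tested in a fit of 22215 probe sets. Limma (3.58.1, R 4.3.3) took all 13 arrays in one model of 5 group means, with control as the mean of its kinds and the lines weighted equally. A call means an adjusted p under 0.05 (Benjamini-Hochberg, over the genes tested). Errors of log2 differences are moderated SEs, and folds are their antilogs. The 4 array sets came from Ward clustering of the 62 control probe sets and entered as a block. Same-numbered replicates of different groups did not deviate together in most pairs. Of 23 pairs, 7 had a correlation over 0.1 and 14 were negative (range -0.512 to 0.526). The kinds of control did deviate together (0.526), and their same-numbered arrays shared an array set. Replicate numbers were not treated as pairs across the groups.

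The members and lists were chosen with earlier results of these data known. All members were named, then pathway genes called in a comparison in either fit and the 5 genes most like IGFBP3. Alternatives were the array set block, a replicate block, a fit of the compared arrays alone, limma's intensity trend and robust prior, other probe set choices, only genes above the median signal, median centring, quantile normalization, an adjusted p under 0.01, each kind of control, and leaving out each array. The same alternatives for the pathway list, M5 by its replicate 1 alone, and checks of the second IGFBP7 probe set were chosen after seeing the data. The code was tested on simulated data. Promoter windows are RefSeq's.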

Additional observations from a re-analysis of the deposited data

Results flagged for a closer look

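In IGFBP4, M5 differed from M4 by -1.79 without the array set block and by -1.65 with it, and from M1 by -1.19 without it, each past the test of the difference between the lines. For IGFBP7, M5 differed from M4 by 1.01 and from M1 by 0.90 on the brightest probe set, without the block only. Among 38 sets of control or metastatic arrays, 3 held a single array standing far from the rest. Chance gives about 1 in 20 where the arrays are alike. These sets join different lines or kinds of control and different array sets, so that rate does not apply directly. Nothing is therefore read from the count. IGFBP1 read 3.77 on M5 replicate 3 with the next metastatic array at 3.54, and the dimmest IGFBP7 probe set read 3.63 on the same array with the next at 3.33, both below the lower quartile of the array. The brighter IGF2R probe set read 7.77 on M1 replicate 2, the only metastatic array of set 1, with the next at 8.16.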

How the results depend on the processing

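Members called in M4 against control, M4 against M1 and the kinds of control numbered 0 under all alternatives run. For the mean of the lines the 1 called member is IGFBP3, taken up for that call, so its count is a description. It became 0 with the replicate block, the probe set of largest SD, median centring or an adjusted p under 0.01. With single arrays left out the count was 0 to 1, and stayed at 1 in only 3 of 13 fits, those without M4 replicate 1, M5 replicate 1 or M1 replicate 2. In M1 the count of 0 became 1 with the array set block or the intensity trend (0 to 1 without single arrays). In M5 against control 3 became 1 with the array set block or the stricter threshold (0 to 3). The member gained in M1 and the member left in M5 were both IGFBP3, so these counts are descriptions too. Neither IGFBP4 nor IGFBP7 was called in M5 against control in those settings. M5 against M1 went from 2 to 0 with the array set block, only the arrays compared or the stricter threshold, and to 1 with every probe set tested, the probe set of largest SD or only genes above the median (0 to 2). M5 against M4 went from 2 to 1 with the array set block, only the arrays compared, only genes above the median or the stricter threshold (1 to 2).

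Pathway counts in M5 against control went from 4 to 2 with the array set block, 1 with the replicate block or the stricter threshold and 0 with only the arrays compared (1 to 16 without single arrays). Against M1 they went from 3 to 1 with the replicate block or the probe set of largest SD and to 0 with only the arrays compared, every probe set tested or the stricter threshold (0 to 16). Against M4 they went from 2 to 1 with either block or quantile normalization and to 0 with only the arrays compared or the stricter threshold (0 to 14), and for the mean of the lines from 0 to between 0 and 2 without single arrays.

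With the replicate block, which the numbers do not support as a pairing across all groups, IGFBP3 stood at -0.67 for the mean of the lines. IGFBP7 then stood at 0.77 in M5 (limma adjusted p = 0.0631). IGF1R turned from 0.39 to -0.21 with the probe set of largest SD, the second brightest of that gene. IGFBP3 ranged from -0.98 to -0.50 for the mean of the lines over the alternatives run. It was chosen for being low in this comparison, so its constant sign is a description and not support. The cause of the other shifts was not tested.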
